A study of Salmo salar with 12 samples.

Results

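The blood-lineage miRNAs miR-142, miR-150, miR-223, miR-144 and miR-451 were examined in adherent cells of Atlantic salmon. Rows were taken by name, and the names were chosen with earlier results of these data known. A row of the mature miRNA table belonged to the set if it carried one of these numbers and no locus number. A letter and an arm (5p or 3p) could be present or absent. Of 361 rows, 5 met this rule, namely ssa-miR-142a-5p, ssa-miR-142b-5p, ssa-miR-144-3p, ssa-miR-144-5p and ssa-miR-150-5p. For miR-223 and miR-451 the table used here held 0 rows, and 0 rows of the set carried a locus number. Adherent intestinal cells (AIC, 6 libraries) were compared with adherent head kidney cells (AKC, 6 libraries). Leukocytes had been isolated from the distal intestine or the head kidney of post smolts kept in sea water, and had been left to adhere to a dish for 2 days at 12°C. Whole adherent pools were sequenced without sorting, 6 fish were sampled, and the sources used here give neither the sex nor the age of the fish. Small RNA libraries were made from 50 ng of total RNA with 25 PCR cycles.

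Each of these miRNAs is known as a mark of a blood cell lineage. In mammals and zebrafish miR-142 is found in nearly all blood cells, miR-150 is most abundant in mature B and T lymphocytes, where it represses the transcription factor Myb, and miR-223 belongs to granulocytes and other myeloid cells. miR-144 and miR-451 come from one precursor transcript of red blood cells, and miR-451 is known for maturation by Argonaute 2 without Dicer. The head kidney is the blood-forming organ of bony fish. Adherent cells of both organs have been studied as macrophage-like cells, so lymphoid, myeloid and erythroid miRNAs each bear on which blood cells a pool of adherent cells holds.

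Total counts of the AIC libraries ran from 2253241 to 11804738, and those of the AKC libraries from 5791812 to 19586480. At these depths 3 counts, taken as the smallest countable signal, made up no more than 0.000133% of any library in AIC and 5.18e-05% in AKC. TMM scaling factors, by which edgeR adjusts library sizes, ran from 0.528 to 1.0005 in AIC and from 1.05 to 1.79 in AKC, so they did not overlap between the groups. The rows of miR-375 and miR-7, which mark enteroendocrine cells, held 19.5% to 28.4% of the counts in AIC and 0.00613% to 0.0249% in AKC. In AIC nearly all of these counts came from miR-375.

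Of the blood-lineage miRNAs, ssa-miR-150-5p was the only one with counts in all 12 libraries. ssa-miR-142a-5p had counts in 2 libraries, and the other 3 rows of the set had 0 counts in every library. The names in the set stand for several lineages, and the counts came almost entirely from the lymphoid miR-150. The table had no row for miR-223 or miR-451 and listed miR-142 by its 5p arm only. These counts therefore cannot compare the lineages within a pool. Of all 361 rows, 180 had a count in any library, so a row at 0 was common.

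ssa-miR-142a-5p, a strand of the pan-leukocyte miR-142, had 241 counts in AIC replicate 3, 1 count in AIC replicate 5 and 0 counts in AIC replicates 1, 2, 4 and 6. In AKC it had 0 counts in all 6 libraries. The signal therefore rested on a single intestinal library, where it reached 38.1 TMM-normalised CPM (counts scaled to a TMM-adjusted library of 1000000) and 0.00359% of the library. Against a floor of 3 counts per AKC library, the mean of 6.43 CPM in AIC was at least 27.7-fold higher. Without AIC replicate 3 the AIC mean was 0.0949 CPM, below the floor of 3 counts per AIC library, and no fold could be given. With counts in only 2 libraries, both of AIC, its shares of the library gave p = 0.455 in a two-sided exact permutation test, the smallest that this pattern allows, so the test could not pass. It was too low for the filter used in the main fit. In edgeR without that filter its Benjamini-Hochberg adjusted p was 0.0636, and DESeq2 without a filter gave it no p.

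Other rows, too, passed 3 counts in a single library only. Including ssa-miR-142a-5p, 36 rows had 4 or more counts in exactly 1 library, 26 of these reached 100 counts there, and 11 reached 241. AIC replicate 3 held 8 of the 36, more than any other library. The adapters carried random bases, but the sources used here describe no step that used them to remove amplified copies, and the part of such copies in the 241 counts was not tested. Intervals and floors given here cover counting error only.

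ssa-miR-142b-5p, from another copy of miR-142, and the erythroid ssa-miR-144-5p and ssa-miR-144-3p were not detected. In the deepest AIC library, replicate 4, they had 0 of 11804738 counts, where the floor of 3 counts is a share of 2.54e-05%. In the deepest AKC library, replicate 1, they had 0 of 19586480 counts, where that floor is 1.53e-05%. The floors of the shallowest libraries were 0.000133% in AIC replicate 6 and 5.18e-05% in AKC replicate 4. The table lists miR-142 by its 5p arm only. The opposite arm, miR-142-3p, was not analysed here.

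ssa-miR-150-5p was among the most abundant miRNAs of both pools. It ranked 8 of the 76 miRNAs tested by mean CPM in AIC and 6 in AKC. Its counts were 56099, 77930, 38335, 17339, 10475 and 12149 in AIC replicates 1 to 6, against 515408, 328639, 107010, 71395, 167157 and 363707 in AKC replicates 1 to 6. By count it ranked between 6 and 19 within the AIC libraries and between 5 and 8 within the AKC libraries. These counts are set by depth as well as by level, and the shares of each library take depth out.

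As a share of all counts, ssa-miR-150-5p held 1.57%, 1.28%, 0.571%, 0.147%, 0.397% and 0.539% of AIC replicates 1 to 6, against 2.63%, 2.49%, 1.06%, 1.23%, 2.12% and 2.87% of AKC replicates 1 to 6. The groups overlapped: 4 of the 6 AIC libraries lay below every AKC library, and AIC replicates 1 and 2 lay within the AKC range. Exact Clopper-Pearson 95% intervals were narrow at these depths, for instance 0.145% to 0.149% for AIC replicate 4 and 2.86% to 2.88% for AKC replicate 6. The mean share was 0.750% ± 0.550 in AIC and 2.07% ± 0.754 in AKC (SD, n = 6 each). This share was lower in AIC, and the difference exceeded the spread between libraries (p = 0.0130, two-sided exact permutation test, where the smallest p these groups allow is 0.00216). After Benjamini-Hochberg adjustment over the 2 members with a count, that p was 0.0260. The difference no longer passed p under 0.05 when the 5 most abundant miRNAs were taken out of the total. The share of the remaining counts was 9.43% ± 7.74 in AIC and 13.3% ± 3.39 in AKC (SD, n = 6 each), with p = 0.290 in the same exact permutation test, and 1 AIC library then lay above every AKC library. In libraries made from pools of cells, fewer cells that carry a miRNA and less of it in each cell cannot be told apart.

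**Figure D1:**
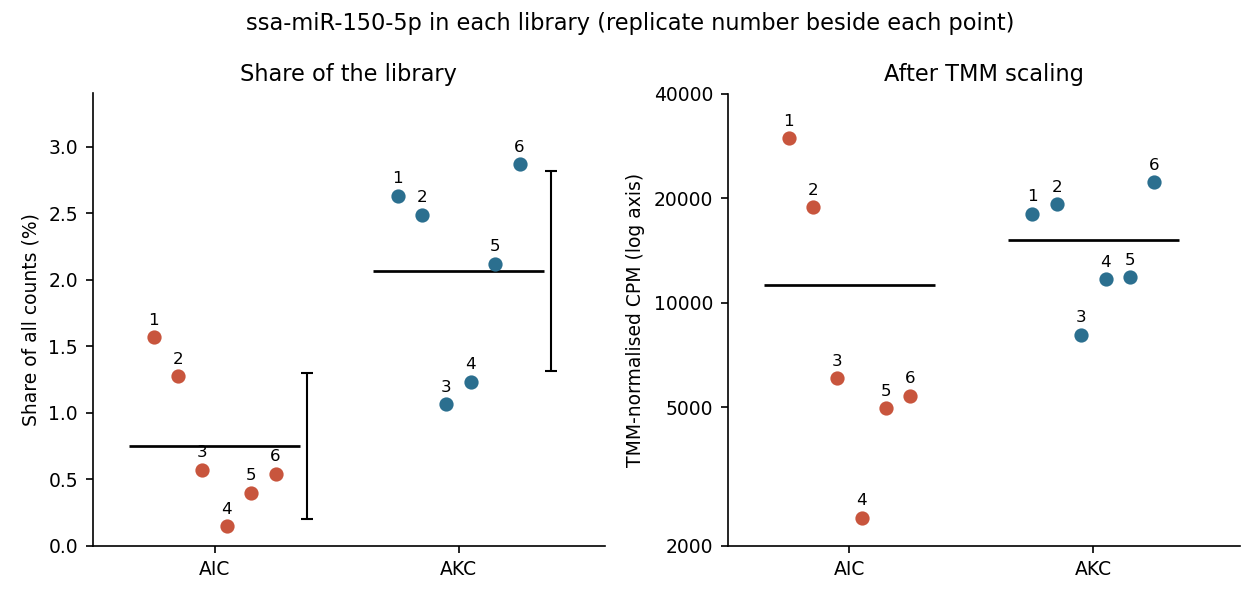
ssa-miR-150-5p in each of the 6 AIC and 6 AKC libraries, as a share of all counts (left, %) and as TMM-normalised CPM (right, log axis); points are libraries with their replicate number, horizontal lines are means, and the vertical bars on the left are ± 1 SD. By share 4 AIC libraries lie below every AKC library and none lies above, and after TMM scaling AIC replicate 1, at 29752 CPM, lies above the highest AKC library, at 22194 CPM.

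After TMM scaling the difference was smaller. ssa-miR-150-5p had 29752, 18842, 6061, 2409, 4970 and 5398 CPM in AIC replicates 1 to 6, against 18034, 19213, 8088, 11703, 11841 and 22194 CPM in AKC replicates 1 to 6. Again 4 AIC libraries lay below all AKC libraries, but AIC replicate 1 now lay above all of them. The mean was 11239 ± 10759 CPM in AIC and 15179 ± 5425 CPM in AKC (SD, n = 6 each). The log2 fold change of -0.43 (95% confidence interval -1.54 to 0.68) did not pass the threshold (adjusted p = 0.623, by the Benjamini-Hochberg method over 76 miRNAs, from the quasi-likelihood test of edgeR). The lower end of the interval lay beyond a fold change of 2. As the only row of the set past the filter, ssa-miR-150-5p left 0 members called, where 26.3% of all miRNAs tested were called. A call required an adjusted p under 0.05 together with a log2 fold change of 1 or more in either direction. The unadjusted p of this 1 member was not under 0.05 in edgeR or in DESeq2, where 32 and 35 of the 76 miRNAs had one. DESeq2 also called 0 members, where it called 43.4% of all miRNAs tested.

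Whether ssa-miR-150-5p was called depended on the scaling of the libraries. With total counts alone its log2 fold change was -1.46 (adjusted p = 0.0201), and with the mapped reads of each library it was -1.73 (adjusted p = 0.0169), both called as lower in AIC by the same edgeR test, where 38.2% and 43.4% of all miRNAs tested were called. With DESeq2's size factors it was -0.56, and with the total taken without the 5 most abundant miRNAs it was -0.50, and neither was called. These settings also moved the miRNAs as a whole. The median log2 fold change over the 76 miRNAs was 0.09 with TMM, -0.06 with DESeq2's size factors, -0.65 with total counts, 0.10 after those 5 miRNAs were taken out of the total and -1.18 with mapped reads. Relative to that median, ssa-miR-150-5p lay at -0.52 with TMM, -0.50 with DESeq2's size factors, -0.82 with total counts, -0.60 after those 5 were taken out and -0.55 with mapped reads. Of all miRNAs, 13 were called higher and 7 lower in AIC with TMM, 9 higher and 20 lower with total counts, and 9 higher and 24 lower with mapped reads. In the order of log2 fold changes with TMM, 28 of the 76 miRNAs tested lay below ssa-miR-150-5p.

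**Figure D2:**
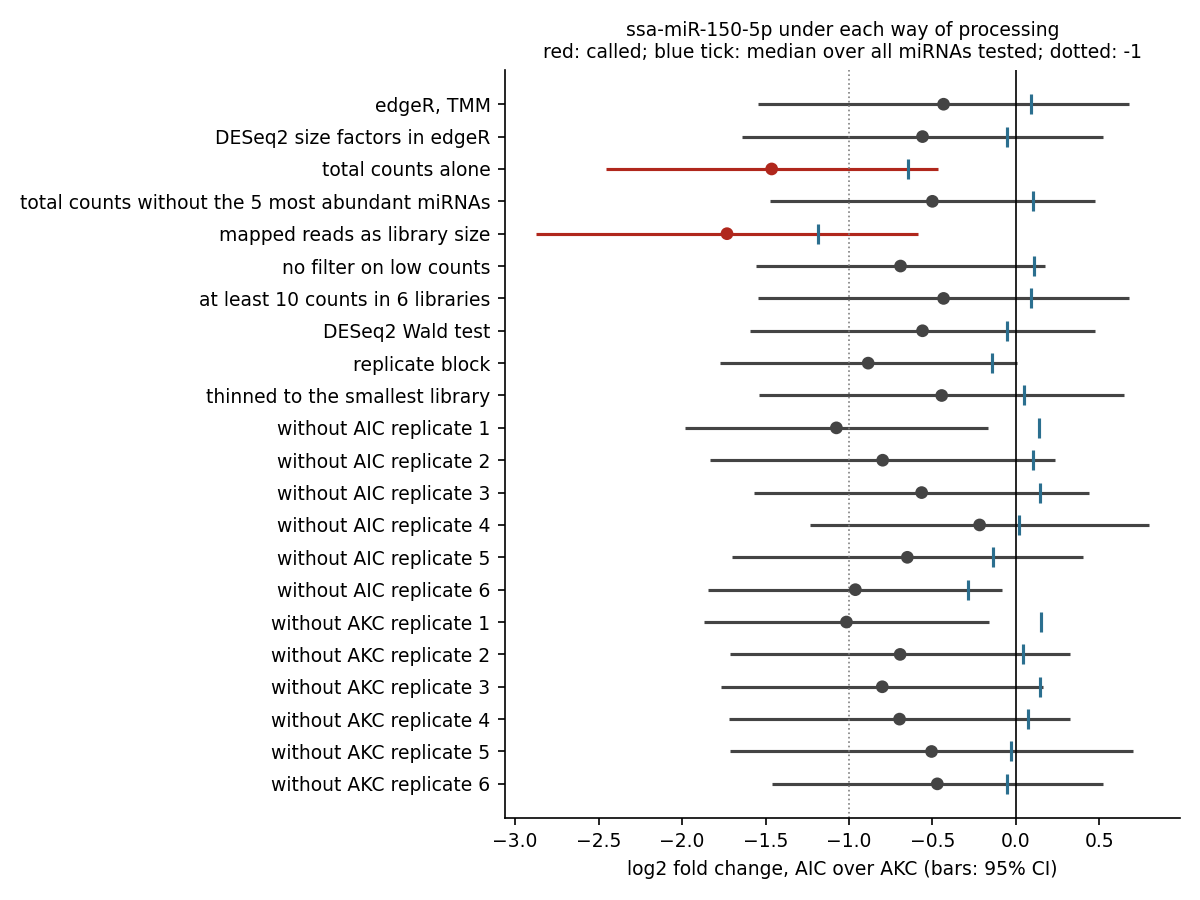
The log2 fold change of ssa-miR-150-5p, AIC over AKC, under each way of processing the counts; points are estimates, bars are 95% confidence intervals, blue ticks are the median over all miRNAs tested, red marks a call, and the dotted line is at -1. All estimates lie below 0, and the 2 in red are those with total counts alone (-1.46) and with mapped reads as library size (-1.73), where the blue tick also lies far to the left.

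A ratio of 2 miRNAs within a library needs no scaling between libraries, and ssa-miR-150-5p was therefore set against each of the 5 most abundant miRNAs, a comparison chosen after the data had been seen. Against ssa-let-7a-5p, a let-7 family member found in most differentiated cells, the mean log2 ratio was -6.35 ± 1.23 in AIC and -4.29 ± 0.73 in AKC (SD, n = 6 each). The difference of -2.06 exceeded the spread between libraries (p = 0.00866 in a two-sided exact permutation test, and 0.0216 after Benjamini-Hochberg adjustment over the 5 ratios), and 5 of 6 AIC libraries lay below every AKC library. Against ssa-let-7b-5p the difference was -2.01 (exact permutation test, p = 0.0152, adjusted 0.0253), with 4 of 6 AIC libraries below. ssa-let-7a-5p was itself called higher in AIC with TMM (log2 fold change 1.19, edgeR adjusted p = 0.00216), though not with total counts (0.29) or mapped reads (0.00070). ssa-let-7b-5p was at 1.07 with TMM and was not called, and it was at -0.08 with mapped reads. The ratio differences therefore hold the change of the denominator as well as that of ssa-miR-150-5p.

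Against ssa-miR-92a-3p, of the miR-17-92 cluster, and ssa-miR-21b-5p the ratios overlapped. With TMM these denominators were themselves at log2 fold changes of -1.04 (called) and -1.21 (not called). The log2 ratio to ssa-miR-92a-3p was -3.79 ± 1.35 in AIC and -3.93 ± 0.71 in AKC (SD, n = 6 each), and the difference of 0.13 lay within the spread between libraries (p = 0.833 in an exact permutation test, adjusted 0.833). For ssa-miR-21b-5p it was -1.29 ± 0.56 in AIC and -1.54 ± 0.84 in AKC (SD, n = 6 each), with a difference of 0.25 that was also within the spread (p = 0.589 in an exact permutation test, adjusted 0.736). The fifth, ssa-miR-375-3p, an enteroendocrine miRNA, was nearly absent from AKC and was itself at a log2 fold change of 11.7 with TMM. The log2 ratio of ssa-miR-150-5p to it differed by -12.6 between AIC and AKC. This difference was set by the denominator, so no test of it is given. It still counted in the adjustment of the other ratios. That made the adjusted p of the ratios to ssa-let-7a-5p and ssa-let-7b-5p smaller than without it.

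The ratio of ssa-miR-142a-5p to ssa-miR-150-5p was compared as well. In AIC replicate 3 there were 629 counts of ssa-miR-142a-5p for every 100000 of ssa-miR-150-5p. In the AKC libraries, all at 0 counts of ssa-miR-142a-5p, 3 counts would have been between 0.582 and 4.20 for every 100000. With 0.5 counts added to both miRNAs the mean log2 ratio was higher in AIC by 4.70. In 10 of the 12 libraries the numerator was the added 0.5 alone, so in those the ratio only restates the count of ssa-miR-150-5p, and no test of it is given.

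ssa-miR-150-5p varied more between the AIC libraries than between the AKC libraries. The highest CPM was 12.3 times the lowest in AIC and 2.74 times the lowest in AKC. The SD of log2 CPM was 1.35 in AIC and 0.55 in AKC. Among the 16 miRNAs within 10 ranks of it in abundance, the median SD was 0.53 in AIC and 0.57 in AKC, and 0 of the 16 had a larger SD than ssa-miR-150-5p in AIC, against 9 of the 16 in AKC. These values describe the libraries and no test was made of them.

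Among the other 75 miRNAs tested, the one most like ssa-miR-150-5p in log2 CPM over the 12 libraries was ssa-miR-21b-5p, with Pearson's r = 0.82 and Spearman's rho = 0.87. ssa-miR-462b-5p, of a cluster known from bony fish, and ssa-miR-155-5p, known from activated immune cells, followed with r = 0.72 and 0.69 (rho = 0.71 and 0.56). Without AIC replicates 1 and 4, the libraries farthest from the median, r was 0.83 for ssa-miR-21b-5p, 0.76 for ssa-miR-462b-5p and 0.56 for ssa-miR-155-5p. After each group was centred on its own mean, the closest were ssa-miR-21b-5p (r = 0.77, rho = 0.84), ssa-miR-462b-5p (r = 0.66, rho = 0.67) and ssa-miR-128-3p (r = 0.64, rho = 0.61). Within AIC alone r with ssa-miR-21b-5p was 0.92, and within AKC alone it was 0.66. All points share their library and its scaling factor, and the correlations are given as a description. ssa-miR-21b-5p itself had 23675 ± 17520 CPM in AIC and 54750 ± 50942 CPM in AKC (SD, n = 6 each), and AKC replicate 1, at 153569 CPM, lay far above the others. Without AKC replicate 1 its r with ssa-miR-150-5p over 11 libraries was 0.91.

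**Figure D3:**
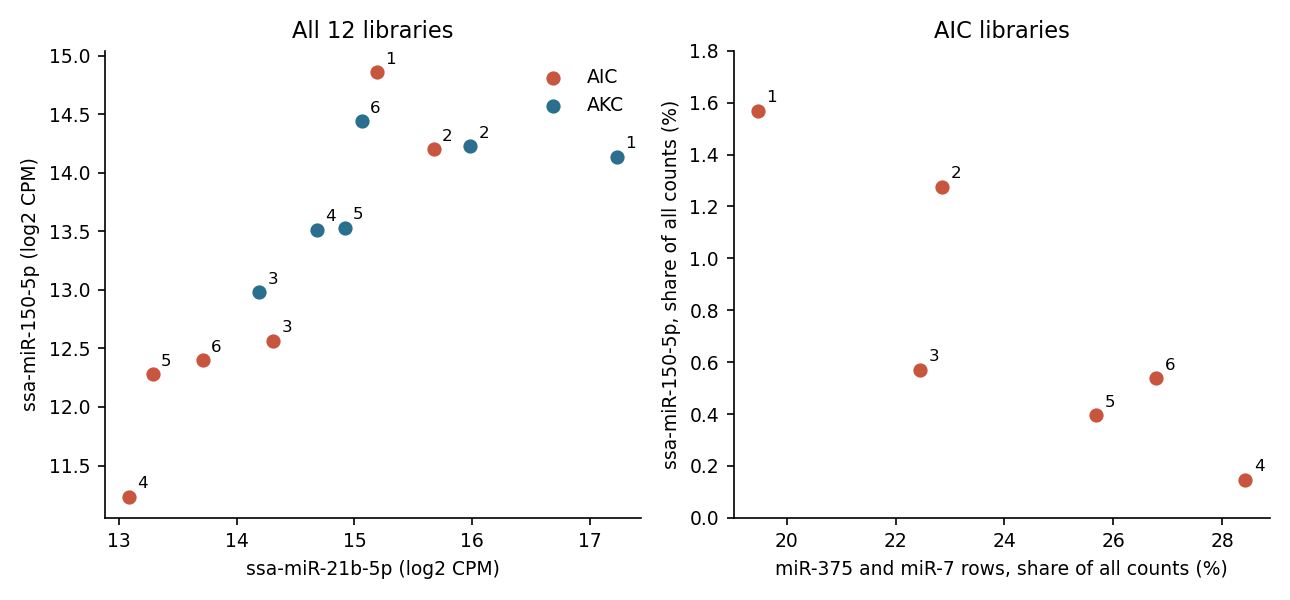
Left, log2 CPM of ssa-miR-150-5p against log2 CPM of ssa-miR-21b-5p in all 12 libraries (AIC red, AKC blue); right, in the 6 AIC libraries, the share of counts of ssa-miR-150-5p (%) against the summed share of the miR-375 and miR-7 rows (%). Numbers are replicates. AIC replicate 4 is lowest in ssa-miR-150-5p, at 0.147% of its counts, and has the largest enteroendocrine share, 28.4%, while AIC replicate 1 has 1.57% and 19.5%.

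Markers of other cell types differed among the AIC libraries. The enteroendocrine rows (3 of 5 with a count) held 19.5%, 22.9%, 22.4%, 28.4%, 25.7% and 26.8% of the counts in AIC replicates 1 to 6. The AIC mean was 333296 CPM for ssa-miR-375-3p and 226 CPM for ssa-miR-7a-5p, so the enteroendocrine share was nearly that of miR-375 alone. Within AIC the share of ssa-miR-150-5p ran against that share (Pearson's r = -0.87, exact permutation p = 0.0167, and Spearman's rho = -0.89, exact permutation p = 0.0333). Over 4 relations that were computed after the data had been seen, the Benjamini-Hochberg adjusted values were 0.0667 and 0.133, so this relation failed the correction. Without AIC replicates 1 and 4, which were farthest from the median, r was -0.56, and both shares come from the same total. The epithelial rows (miR-192, miR-194, miR-200, miR-141 and miR-429, 12 of 15 with a count) held 0.450% to 1.26% in AIC and 3.45e-05% to 0.00954% in AKC, and their r with ssa-miR-150-5p within AIC was -0.53 (exact permutation p = 0.256, rho = -0.54, exact permutation p = 0.297, adjusted 0.341 and 0.396). Without AIC replicates 3 and 6, the farthest from the median of the epithelial share, that r was -0.96. The -0.56 and the -0.96 come from different sets of libraries, so they do not rank the 2 marker relations. The total count of the library gave r = -0.36 within AIC (exact permutation p = 0.493, rho = -0.14, exact permutation p = 0.803, adjusted 0.493 and 0.803) and 0.67 within AKC (exact permutation p = 0.151, rho = 0.66, exact permutation p = 0.175, adjusted 0.303 and 0.350). Without the 2 farthest libraries these were 0.04 within AIC and 0.53 within AKC. Stromal rows (miR-143, miR-145, miR-199 and miR-214, 3 of 6 with a count) and endothelial rows (miR-126, 1 of 2 with a count) held at most 0.0190% of any library. The part of these cell types in the level of ssa-miR-150-5p was not tested.

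A wider list of miRNAs known from studies of mammalian blood cells was set beside ssa-miR-150-5p. It comprised the families miR-15, miR-16, miR-17, miR-18, miR-19, miR-20, miR-21, miR-29, miR-92, miR-125, miR-126, miR-128, miR-130, miR-146, miR-155, miR-181, miR-221, miR-222 and miR-486. Of its 76 rows, 55 had a count and 26 were tested, of which the same edgeR test called 1 as higher and 5 as lower in AIC. The 26 included no row of miR-17, miR-18, miR-20, miR-126, miR-221 or miR-486. Among all miRNAs tested, 17.1% were called higher and 9.21% lower in AIC. The median log2 fold change of the list was -0.83, against 0.09 over all miRNAs tested, and 21 of 26 were negative, against 37 of 76. ssa-miR-150-5p, at -0.43, lay between these medians. The list was chosen with earlier results of these data known, so the direction in which it leans is no independent evidence. Several of its rows belong to one family, and all miRNAs tested include those of the list. These values are therefore given as a description.

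The called members of the wider list had the following levels. ssa-miR-155-5p, of activated lymphocytes and macrophages in mammals, had 179 ± 175 CPM in AIC and 1931 ± 1899 CPM in AKC (SD, n = 6 each), a log2 fold change of -3.43. ssa-miR-181c-5p, whose family is known from mammalian lymphocyte development, had 837 ± 353 CPM in AIC and 2560 ± 607 CPM in AKC (SD, n = 6 each), a log2 fold change of -1.61. The AIC libraries of both lay below all AKC libraries, unlike those of ssa-miR-150-5p, and among all miRNAs tested the groups did not overlap for 26.3%. ssa-miR-21a-5p and ssa-miR-92a-3p were lower at log2 fold changes of -2.50 and -1.04, and ssa-miR-19d-5p, whose AIC libraries held no more than 2 counts each, was at least 118-fold lower against a floor of 3 counts per AIC library. ssa-miR-125a-5p was the only called miRNA of the list that was higher in AIC, at 2.61. All 6 kept their direction and their call under each of the 5 ways of scaling above.

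**Figure D4:**
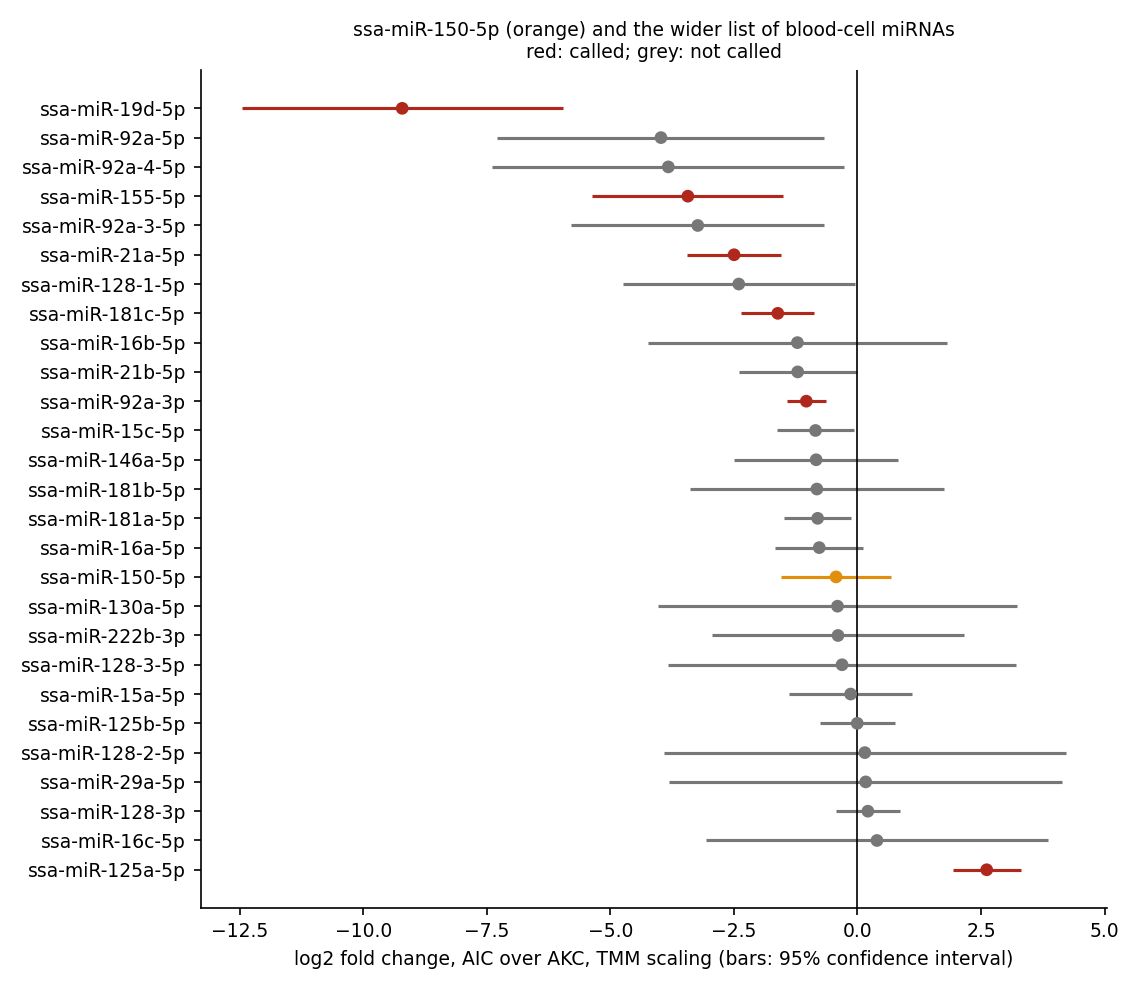
Log2 fold changes (AIC over AKC, TMM scaling) of ssa-miR-150-5p (orange) and the 26 tested miRNAs of the wider list, with 95% confidence intervals as bars; red marks called miRNAs and grey the others. ssa-miR-150-5p, at -0.43, lies among the grey miRNAs whose intervals cross 0; the fitted value of ssa-miR-19d-5p, with no more than 2 counts in each AIC library, is not a bound.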

How the data were processed

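Small RNA of 6 AIC and 6 AKC libraries was analysed. Per the labels and methods, the authors used Cutadapt 1.12 for adapters and the FASTX-Toolkit for low-quality reads, aligned the rest to ICSASG_v2 and counted miRBase salmon miRNAs with miRDeep2 (its version is not given in the sources used here). The authors deposited estimated counts, not normalized for library size, in which 12 rows hold fractions, 0 of them in this set. Counts were rounded.

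R 4.3.3 with edgeR 4.0.16 (filterByExpr with a minimum count of 10, TMM, quasi-likelihood test) was fitted on the whole table, with DESeq2 1.42.0 as an alternative. Alternatives covered the scaling (including mapped reads from the supplement of the study), the filter, a replicate term, thinning and omission of single libraries. Shares and ratios used exact permutation tests (Python 3.11.15). log2 CPM used a prior count of 2. Tested on simulated data of 76 miRNAs in AIC against AKC, edgeR recovered 29.5% of 4-fold, 71.0% of 16-fold and 90.8% of 64-fold changes. These are averages over miRNAs drawn from all 76, sparse ones included, and recovery for ssa-miR-150-5p alone was not computed. All members are named, as are the 3 miRNAs most like ssa-miR-150-5p in each of the 2 correlations and the called miRNAs of the wider list. Members and lists were chosen with earlier results of these data known. The study describes 6 sampled fish, with distal intestine and head kidney dissected, and names 6 biological replicates, but not which fish gave which library. The main tests treated the libraries as independent and used no pairing by fish. Their p-values set a difference between the groups against the spread between these libraries. Mature sequences and gene positions were not used here.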

Additional observations from a re-analysis of the deposited data

Results flagged for a closer look

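For 25 groups of 6 values the gap between the most extreme library and its nearest neighbour was set against the whole range. In 3 of them the gap was larger than the 95% critical value. That value assumes normally distributed data, so it served only as a flag and no chance rate is given. ssa-miR-142a-5p had 38.1 CPM in AIC replicate 3, and at most 0.474 CPM in the other AIC libraries. ssa-miR-21b-5p, the miRNA most like ssa-miR-150-5p, had 153569 CPM in AKC replicate 1 and between 18652 and 64924 CPM in the other AKC libraries. ssa-miR-21a-5p had 11679 CPM in AKC replicate 1 and between 3054 and 5877 CPM in the others. Without AKC replicate 1 ssa-miR-21a-5p was still called by edgeR, at a log2 fold change of -2.46, and ssa-miR-21b-5p, at -1.04, was not called. ssa-miR-150-5p itself had no library that far from its group, in CPM or as a share.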

How the results depend on the processing

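The log2 fold change of ssa-miR-150-5p was negative under all alternatives. It was called only with total counts alone (-1.46) and with mapped reads as library size (-1.73), which raised the members called to 1 each. Leaving out 1 library at a time, it ran from -1.08 (without AIC replicate 1) to -0.22 (without AIC replicate 4) and was never called, with 0 members called in each fit. All of these estimates except that without AIC replicate 4 were more negative than the -0.43 with all libraries. Confidence intervals lay wholly below 0 without AIC replicate 1 (-1.98 to -0.17), AIC replicate 6 (-1.84 to -0.08) or AKC replicate 1 (-1.87 to -0.16). The edgeR adjusted p in these fits was 0.0860, 0.0967 and 0.0755. Leaving out a library also changed which miRNAs passed the filter. The fits that left out a library tested 79 to 86 miRNAs, against 76 with all libraries. An effect of the omitted library and one of the changed filter and scaling cannot be told apart. With no filter the log2 fold change was -0.69, after thinning -0.44 and with DESeq2 -0.56. The lower share of ssa-miR-150-5p kept an unadjusted p under 0.05 in all but 1 alternative. Without the 5 most abundant miRNAs in the total, the difference was -3.91 percentage points of a smaller total and the exact permutation test gave p = 0.290. With each library left out the difference ran from -1.52 to -1.16 percentage points. That of ssa-miR-142a-5p ran from 7.58e-06 to 0.000726, lowest without AIC replicate 3. The log2 ratio of ssa-miR-142a-5p to ssa-miR-150-5p ran from 3.37 to 5.36, lowest without AIC replicate 3, and mostly restates the count of ssa-miR-150-5p. In the wider list 6 were called (of 20 among all miRNAs), against 14 (of 29) with total counts, 17 (of 33) with mapped reads and 13 (of 33) with DESeq2, and 5 to 9 (of 18 to 22) with a library left out.

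With the replicate number as a block, ssa-miR-150-5p was at -0.89 (edgeR, adjusted p = 0.114) and not called, and 22 miRNAs of all were called, against 20. Paired by replicate number, the share of ssa-miR-150-5p in all counts gave p = 0.0313 in an exact sign-flip test, the smallest p that 6 pairs allow. The labels state no pairing, and AIC and AKC libraries with one number showed no shared deviation (mean correlation -0.0014, with 0 of 6 over 0.1 and 0 of 6 AIC libraries closest to their own number).

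The floors given for rows at 0 rest on depth alone, and why these rows held no counts was not tested. The 6 libraries per group limit what can be said of a difference as small, and as variable between fits, as that of ssa-miR-150-5p with TMM.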
